A study of Homo sapiens with 18 samples.

Results

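The genes described here are 10 well-known targets of the transcription factor NRF2: NQO1, GCLC, GCLM, TXNRD1, SRXN1, AKR1C1, AKR1C2, AKR1C3, AKR1B10 and HMOX1. They were chosen by gene name and make up 10 of the 58302 genes listed in each of the 3 deposited expression tables, and all 10 were found in every table. RNA was sequenced from 3 human lung cancer cell lines, EBC-1, which carries an amplified MET gene, and a pair with an EGFR exon 19 deletion, PC-9 and HCC827. In each line, cells carrying a lentiviral shRNA against the kinase SYK (shSYK) were compared with cells carrying a negative control (nc), with 3 libraries per group and 18 libraries in all. The knockdown rests on 1 shRNA, no kinase inhibitor treatment is named in the labels of these libraries, and nothing says that replicate libraries came from separate cultures, so p-values measure only the spread between these libraries. The study asked what loss of SYK does to the cell state behind the response to c-Met and EGFR inhibitors, and the comparison below asks how the NRF2 targets stood in nc cells and after SYK knockdown.

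NRF2, encoded by NFE2L2, is held in the cytoplasm by KEAP1, which feeds it to a CUL3 ubiquitin ligase for degradation. Electrophiles and oxidants modify KEAP1, NRF2 then accumulates, pairs with small MAF proteins and binds antioxidant response elements, while BACH1 represses some of the same elements, those of HMOX1 above all. The target genes make glutathione, reduce thioredoxin, quinones and carbonyls, and break down heme, and the pathway is known for being constitutively active in part of lung cancers, in which KEAP1 or NFE2L2 is mutated.

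Reads on genes ranged from 7920099 to 15729103 per library. Epithelial markers (EPCAM, CDH1, KRT8, KRT18, KRT19) were present in all 18 libraries, at no less than 31.0 FPKM, fragments per kilobase of transcript scaled to library size, the leukocyte marker PTPRC had at most 14 reads and the fibroblast marker COL1A2 at most 6. Of the other markers of foreign cells, COL1A1 reached 8.29 FPKM and PDGFRB 0.57 FPKM, and PECAM1 fell in PC-9 cells from 13.4 ± 0.903 to 4.98 ± 0.601 FPKM (SD, n = 3; adjusted p = 0.00492 with limma). The part of these levels in the results below was not tested. SYK mRNA of shSYK cells stood at 52.3% of nc for EBC-1, 32.1% for PC-9 and 32.9% for HCC827, and all 3 falls passed the test. PC-9 nc replicate 1 had an FPKM denominator of 0.883 times its reads on genes, the lowest of the 18 libraries, with HCC827 nc replicate 3 near it at 0.898. In EBC-1 the denominator was 0.969 to 1.008 times the reads in nc and 1.034 to 1.072 in shSYK. Of all pairs of replicates within a group, PC-9 nc replicates 1 and 2 differed most in their reads (chi-square per degree of freedom of 38.7). EBC-1 nc replicate 2 differed from nc replicates 1 and 3 by 10.6 and 12.2, and those from each other by 2.23. EBC-1 shSYK replicate 3 differed from shSYK replicates 1 and 2 by 9.28 and 8.35, and those from each other by 2.11.

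Values are FPKM as deposited. Tests were run with limma on log2(FPKM + 1) over all genes with a mean of at least 1 FPKM in a line, and every adjusted p below is from limma with Benjamini-Hochberg adjustment over those genes, with 0.05 as the threshold. The +1 makes a log2 fold change smaller than the log2 of the FPKM ratio for genes at a few FPKM. In bulk RNA, fewer cells that express a gene cannot be told apart from less of its RNA per cell.

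The antioxidant response element core, TGACNNNGC, was searched on both strands of the RefSeq promoters, from 250 bases before to 50 after each transcription start in GRCh38.p14. Of the 10 genes, 8 were matched to 10 promoter windows, and AKR1B10 and HMOX1 were not matched. The core lay in 3 of these windows, that of GCLM and both of TXNRD1, and 4687 of all 35116 promoters (13.35%) hold it. None of the 10 windows held the AP-1 site TGACTCA, whose letters can fall inside the core and which 4.95% of all promoters hold. The matched stretches are shown because GCLM and TXNRD1 are the genes of this group with a core beside a start site; capitals mark the core, in the first TXNRD1 stretch 2 of them, and a core on the other strand appears as its reverse complement.
GCLM, chr1:93909431-93909484, minus strand: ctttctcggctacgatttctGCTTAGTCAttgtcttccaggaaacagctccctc
TXNRD1 upstream start, chr12:104215660-104215779, plus strand: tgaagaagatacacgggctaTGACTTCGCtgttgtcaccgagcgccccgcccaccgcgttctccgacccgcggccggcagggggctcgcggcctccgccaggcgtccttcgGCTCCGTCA
TXNRD1 downstream start, chr12:104286910-104286959, plus strand: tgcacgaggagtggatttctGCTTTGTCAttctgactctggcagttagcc
The GCLM core starts 34 bases before the transcription start, the cores of the upstream TXNRD1 start begin 99 and 8 bases before it, and that of the downstream start begins 102 bases before it. The genes with a core in these windows moved in opposite directions in HCC827 cells and did not pass the test in the other lines, as described below. A match of letters is a description and not a binding site. Sequence outside the windows was not searched, so a gene without a match may still have an element elsewhere.

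In no line did SYK knockdown give calls in the same direction for all 10 genes. In EBC-1 cells all 4 aldo-keto reductases rose, AKR1B10 by a factor of 4.43, and HMOX1 fell to 9.40% of nc, while the other 5 genes did not pass the test. In HCC827 cells NQO1, TXNRD1, AKR1C3 and AKR1B10 fell and GCLM rose, and the calls of GCLM and AKR1B10 were lost under some alternatives, as given below. In PC-9 cells AKR1C1 fell, and the other 9 did not pass the test, which does not show that they stayed unchanged. Of the 10 genes, 3 were called in opposite directions in different lines (AKR1B10, AKR1C1 and AKR1C3), and GCLC and SRXN1 were called in none. The shares of all genes called in opposite directions or in no line were not worked out. The counts across lines are therefore a description and not a trait of these targets.

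These counts stand against a wide background of change. In EBC-1 cells 5 of 10 genes were called, and 44.7% of all 12430 genes tested were called, 23.1% higher and 21.6% lower in shSYK. Their groups did not overlap for 6 of 10 genes, against 56.9% of all genes. In HCC827 cells 5 of the 8 genes tested were called, against 38% of all 11999 genes tested (17.2% higher and 20.7% lower), and 5 did not overlap, against 52.3% of all. In PC-9 cells 1 of 10 was called, against 2.09% of 12089 genes (0.678% higher and 1.41% lower), and 6 did not overlap, against 23.7%. The share called was near the background in EBC-1 cells, and in the other lines the difference from it came to 1 or 2 genes. Leaving out 1 library mattered as well. In EBC-1 cells 2 genes rose without nc replicate 1 or 3 or shSYK replicate 1, and 6 without nc replicate 2. Without adjustment, p was under 0.05 for 5 of 10 targets of EBC-1 cells (53.1% of all genes), 6 of 8 of HCC827 cells (48%) and 5 of 10 of PC-9 cells (15.6%), and in PC-9 GCLC alone of these 5 was higher. The median log2 fold change over the targets tested was 0.16 in EBC-1 cells, -0.34 for HCC827 and -0.11 for PC-9, beside 0.01, -0.01 and 0.01 over all genes.

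**Figure D1:**
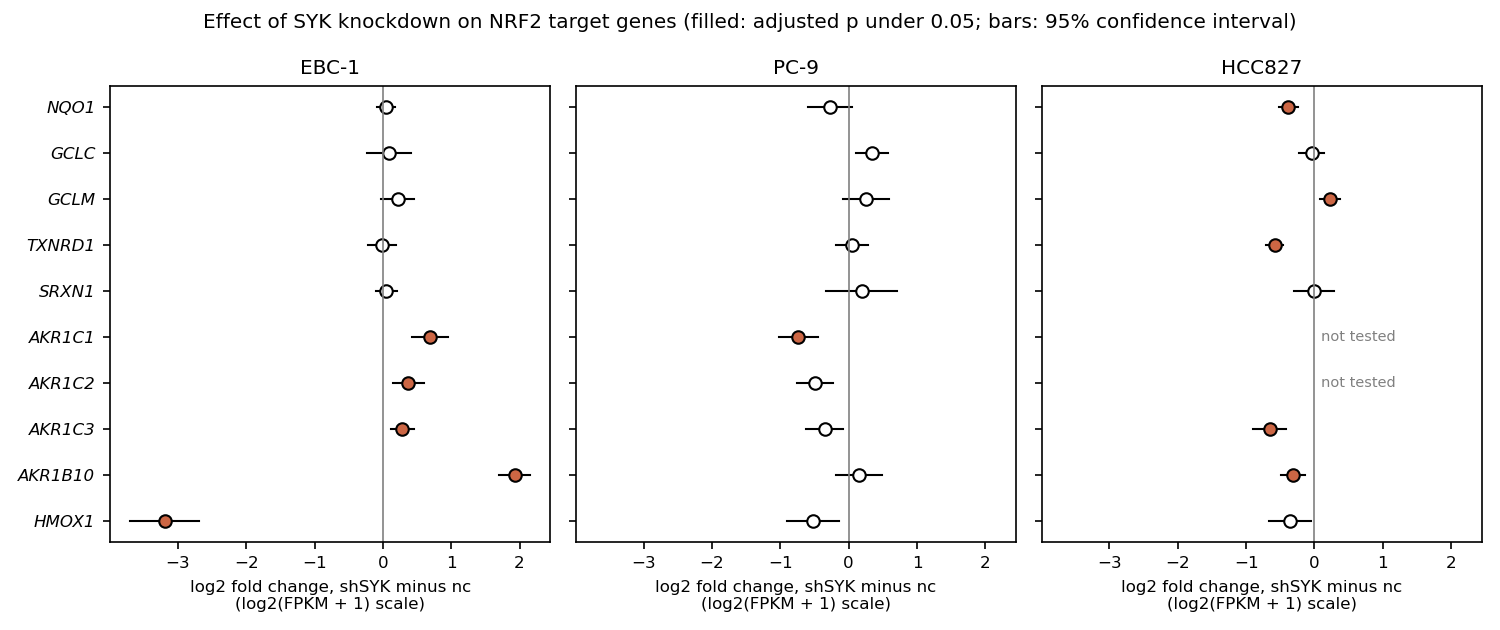
Log2 fold change, shSYK minus nc on the log2(FPKM + 1) scale (x axis), of the 10 NRF2 target genes (y axis) in each cell line, with 95% confidence intervals from limma as bars and filled points for an adjusted p under 0.05. The points for HMOX1 (-3.19) and AKR1B10 (1.93) in EBC-1 lie far from 0 on opposite sides, and all other points lie between -0.73 and 0.69.

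Levels in nc cells had wide ranges over the 3 lines. The mean nc level was highest in PC-9 for 8 of the 10 genes and in EBC-1 for TXNRD1 and HMOX1, and it was lowest in HCC827 for 9 of them and in EBC-1 for AKR1B10. For GCLC and SRXN1 the nc libraries of PC-9 and EBC-1 overlapped. The share of all genes with the highest nc level in PC-9 was not worked out. The highest mean was 24.7 times the lowest for AKR1B10, 24.3 times for AKR1C3, 21.0 times for HMOX1, 4.31 times for GCLM, 3.36 times for GCLC, 2.76 times for SRXN1, 2.15 times for NQO1 and 1.99 times for TXNRD1. AKR1C1 and AKR1C2 were near the limit of detection in HCC827, so no ratio is given for them. Per length, TXNRD1 and NQO1 were the most abundant of the 10 transcripts in all 6 groups. No test was made between lines, because each line has its own table and the line and the table cannot be told apart.

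**Figure D2:**
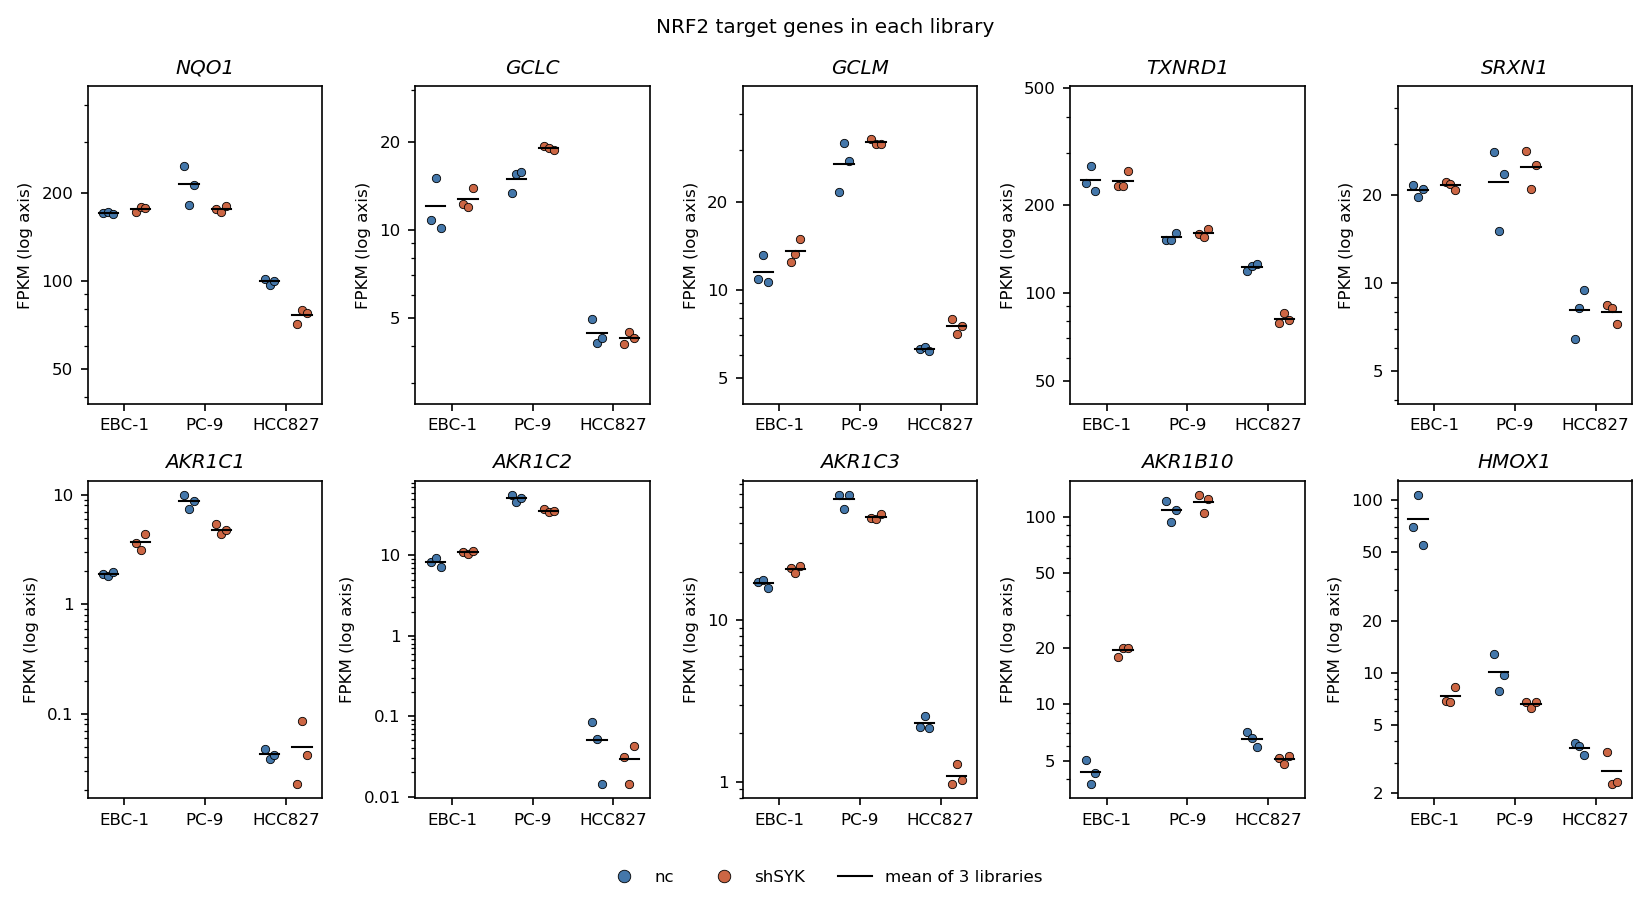
FPKM of the 10 NRF2 target genes in each of the 18 libraries (log axis, own range per panel), grouped by cell line, with nc in blue, shSYK in orange and a bar at the mean of 3 libraries. PC-9 stands highest for most genes, AKR1C1 and AKR1C2 are below 0.1 FPKM in all HCC827 libraries, and HMOX1 drops between the EBC-1 groups.

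NQO1 (ENSG00000181019, chr16:69706996-69726951 in hg38, minus strand) encodes the quinone reductase that is the classic readout of NRF2. In HCC827 cells it read 102, 97.01 and 100.2 FPKM in the nc libraries and 70.99, 79.8 and 77.9 in the shSYK libraries, so that every shSYK library lay below every nc library. Its log2 fold change was -0.38 (SE 0.06, adjusted p = 0.00298), a fall to 76.5% of nc, and the call held under every alternative. In EBC-1 cells the values were 171, 172 and 169 FPKM in nc and 172, 179 and 177 in shSYK. The EBC-1 groups did not overlap but nearly touched, at 171.5 FPKM in nc replicate 2 and 171.7 in shSYK replicate 1, and the log2 fold change of 0.04 did not pass the test (adjusted p = 0.554). In PC-9 cells the values were 248, 181 and 213 FPKM in nc and 176, 172 and 181 in shSYK, with the highest value in nc replicate 1. The PC-9 groups did not overlap either, if only just between nc replicate 2 and shSYK replicate 3, and the log2 fold change was -0.27 (95% interval -0.59 to 0.05, adjusted p = 0.405). Without nc replicate 1 it was -0.15 (adjusted p = 0.399). In the order of levels, PC-9 nc came first, PC-9 shSYK and EBC-1 shSYK overlapped, and HCC827 shSYK came last.

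Rescaling the EBC-1 libraries to an equal FPKM sum moved the median of all genes from 0.01 to 0.12, and under that scaling NQO1, GCLM and SRXN1 passed the test as well. Their log2 fold changes were then 0.17, 0.34 and 0.18 (adjusted p = 0.0358, 0.0419 and 0.0416), which is 0.06, 0.22 and 0.06 above that median. TXNRD1 then read 0.12, above 0, and stayed without a call. Quantile normalization also called NQO1 in EBC-1 cells (0.18, adjusted p = 0.0333) and in PC-9 cells (-0.37, adjusted p = 0.0179).

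GCLC and GCLM encode the catalytic and the modifier subunit of glutamate-cysteine ligase, the rate-limiting enzyme of glutathione synthesis. GCLM (ENSG00000023909, chr1:93885205-93909456, minus strand) read 6.25, 6.36 and 6.18 FPKM in HCC827 nc and 7.96, 7.04 and 7.52 in HCC827 shSYK. The 3 shSYK libraries lay above the 3 nc libraries, with a log2 fold change of 0.23 (SE 0.06, adjusted p = 0.0237). This call was lost when nc replicate 1, 2 or 3 or shSYK replicate 1 or 3 was left out (adjusted p between 0.0504 and 0.0673), and in a fit of all 18 libraries (adjusted p = 0.152). GCLM gave 10.9, 13.2 and 10.6 FPKM in EBC-1 nc and 12.5, 13.2 and 14.96 in EBC-1 shSYK, and 21.6, 31.8 and 27.6 in PC-9 nc and 32.8, 31.6 and 31.5 in PC-9 shSYK. Groups overlapped in both lines, and the log2 fold changes of 0.22 and 0.25 did not pass the test (adjusted p = 0.121 and 0.467). Without PC-9 nc replicate 1, the lowest of its group, the PC-9 value was 0.11 (adjusted p = 0.525). Without EBC-1 nc replicate 2, the library with the highest GCLM and GCLC of its group, both genes passed in EBC-1 cells, GCLM at 0.31 (adjusted p = 0.0256) and GCLC at 0.25 (adjusted p = 0.0398). GCLM also passed with limma-voom on recovered reads (0.32, adjusted p = 0.0312).

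GCLC (ENSG00000001084, chr6:53497341-53616970, minus strand) was called in no line. In PC-9 cells its 3 shSYK values, 19.3, 18.98 and 18.7 FPKM, lay above the nc values of 13.4, 15.5 and 15.7, with a log2 fold change of 0.34 (95% interval 0.10 to 0.57) and an adjusted p of 0.160. In EBC-1 and HCC827 cells the groups overlapped, at 12.01 ± 2.67 and 12.7 ± 1.01 FPKM and at 4.42 ± 0.453 and 4.27 ± 0.205 FPKM in nc and shSYK (SD, n = 3). The ratio of GCLC to GCLM per length was 1.03 ± 0.0991 in EBC-1 nc and 0.940 ± 0.0395 in EBC-1 shSYK, 0.559 ± 0.0663 and 0.595 ± 0.00564 in PC-9, and 0.706 ± 0.0756 and 0.572 ± 0.0623 in HCC827 (SD, n = 3), and no test was made of it. Within HCC827 cells every shSYK ratio lay below every nc ratio, and in the other lines the ratios overlapped.

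TXNRD1 and SRXN1 belong to the thioredoxin system, as the cytosolic thioredoxin reductase and as the sulfiredoxin that repairs oxidized peroxiredoxins. TXNRD1 (ENSG00000198431, chr12:104215779-104350305, plus strand) read 118, 124 and 125 FPKM in HCC827 nc and 78.5, 85.1 and 80.6 in HCC827 shSYK. All 3 shSYK libraries were below the lowest nc library, and the log2 fold change of -0.58 (SE 0.05, adjusted p = 0.000422) held under every alternative. This was the lowest adjusted p of any of the 10 genes in HCC827. In EBC-1 cells the means were 244 ± 24.2 FPKM in nc and 241 ± 16.5 in shSYK, and in PC-9 cells 155 ± 5.20 and 159.9 ± 5.26 (SD, n = 3). Groups overlapped in both lines and the intervals of the log2 fold change, -0.22 to 0.20 and -0.19 to 0.29, both spanned 0. The locus of TXNRD1 holds 3 other listed genes, among them the ribosomal protein pseudogene RPL18AP3 on the same strand with a mean of 442 FPKM over the 18 libraries, and how reads shared between them were counted is not given in the sources used here.

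SRXN1 (ENSG00000271303, chr20:646615-653370, minus strand) did not pass the test in any line. Its libraries read 28.1, 15.1 and 23.6 FPKM in PC-9 nc and 28.4, 21.1 and 25.5 in PC-9 shSYK, the widest spread within a group among its values. The log2 fold changes were 0.05 for EBC-1, 0.19 for PC-9 and -0.0047 for HCC827, with 95% intervals of -0.10 to 0.21, -0.33 to 0.71 and -0.30 to 0.29. Without PC-9 nc replicate 1 the PC-9 value was 0.37 (adjusted p = 0.282). Of neighbours in the order of levels, the EBC-1 and PC-9 groups overlapped, and HCC827 stood lower, at 8.09 ± 1.54 FPKM in nc and 7.98 ± 0.627 in shSYK (SD, n = 3).

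The aldo-keto reductases reduce carbonyls to alcohols with NADPH; AKR1B10 reduces retinal and lipid aldehydes, and AKR1C1, AKR1C2 and AKR1C3 are hydroxysteroid dehydrogenases. AKR1B10 (ENSG00000198074, chr7:134527592-134541408, plus strand) read 5.03, 3.77 and 4.33 FPKM in EBC-1 nc and 17.98, 20.1 and 20.1 in EBC-1 shSYK. The lowest shSYK library was more than 3 times the highest nc library, and the log2 fold change was 1.93 (SE 0.10, adjusted p = 4.13e-05). Even so, EBC-1 shSYK cells stayed far under PC-9 cells, in which AKR1B10 read 122, 93.5 and 109 FPKM in nc and 131, 105 and 125 in shSYK. In PC-9 the groups overlapped and the log2 fold change of 0.15 did not pass the test (adjusted p = 0.687), nor did it without nc replicate 1 (0.24, adjusted p = 0.284). In HCC827 cells the values went from 7.14, 6.64 and 5.96 FPKM to 5.16, 4.80 and 5.30, a log2 fold change of -0.31 (SE 0.08, adjusted p = 0.0153). The HCC827 call rested on 89 to 136 reads per library and was lost without shSYK replicate 2 (adjusted p = 0.0558), after rescaling to an equal FPKM sum (adjusted p = 0.0546) and with limma-voom on recovered reads (adjusted p = 0.131).

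AKR1C1, AKR1C2 and AKR1C3 lie side by side on chromosome 10 and are near copies of each other. Over their 969 coding bases (GENCODE v44), AKR1C1 and AKR1C2 are 98.0% identical and share 51.6% of their windows of 50 bases, while AKR1C1 and AKR1C3 are 91.4% and AKR1C2 and AKR1C3 91.0% identical. How the authors' counting treated reads that fit more than 1 of them is not given in the sources used here, so the split between AKR1C1 and AKR1C2 is uncertain. The first 60 coding bases, all in exon 1, show how alike they are; capitals mark the 8 positions that are not the same in all 3, of which 1 tells AKR1C1 from AKR1C2.
AKR1C1, chr10:4963445-4963504, plus strand: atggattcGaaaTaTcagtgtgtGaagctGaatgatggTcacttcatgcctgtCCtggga
AKR1C2, chr10:5003776-5003835, minus strand: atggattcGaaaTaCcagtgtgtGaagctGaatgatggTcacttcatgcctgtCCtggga
AKR1C3, chr10:5094445-5094504, plus strand: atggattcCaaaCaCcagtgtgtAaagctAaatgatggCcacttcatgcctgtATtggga

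In EBC-1 cells all 3 AKR1C genes rose. AKR1C1 (ENSG00000187134, chr10:4963253-4983283) read 1.89, 1.82 and 1.97 FPKM in nc and 3.58, 3.10 and 4.41 in shSYK, a log2 fold change of 0.69 (SE 0.11, adjusted p = 0.00285). AKR1C2 (ENSG00000151632, chr10:4987400-5018031) read 8.18, 9.36 and 7.18 in nc and 10.98, 10.3 and 11.4 in shSYK, a log2 fold change of 0.37 (SE 0.10, adjusted p = 0.0179). AKR1C3 (ENSG00000196139, chr10:5035354-5107686) read 17.2, 17.7 and 15.8 in nc and 21.1, 19.5 and 21.7 in shSYK, a log2 fold change of 0.28 (SE 0.07, adjusted p = 0.0177). For each of the 3, every shSYK library lay above every nc library. The AKR1C2 call was lost without nc replicate 1 or 3 or shSYK replicate 1 or 3 (adjusted p between 0.0530 and 0.0564), and the AKR1C3 call without nc replicate 1 or 3 or shSYK replicate 1 (between 0.0534 and 0.0638). Summed over the 3 genes, FPKM went from 27.0 ± 2.003 to 35.4 ± 2.30 (SD, n = 3), a log2 fold change of 0.38 (SE 0.08, adjusted p = 0.00819).

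In PC-9 cells the same genes read lower in every shSYK library than in any nc library. AKR1C1 went from 9.94, 7.45 and 8.68 FPKM to 5.34, 4.36 and 4.71, a log2 fold change of -0.73 (SE 0.12, adjusted p = 0.0357). AKR1C2 read 56.5, 46.1 and 51.04 FPKM in nc and 37.4, 34.4 and 35.8 in shSYK, and AKR1C3 read 59.2, 49.1 and 59.6 and 42.8, 42.3 and 45.6. These did not pass the test, with log2 fold changes of -0.50 (95% interval -0.76 to -0.23, adjusted p = 0.0795) and -0.35 (95% interval -0.62 to -0.08, adjusted p = 0.202). Without nc replicate 1, AKR1C2 passed at -0.43 (adjusted p = 0.0440), as it did without nc replicate 2 at -0.57 (adjusted p = 0.0325). The call of AKR1C1 was lost without nc replicate 3 or without shSYK replicate 1, 2 or 3 (adjusted p between 0.135 and 0.183), and the sum of the 3 genes, 116 ± 11.9 FPKM in nc and 84.3 ± 2.72 in shSYK (SD, n = 3), did not pass (-0.45, adjusted p = 0.112). The number of all genes called in PC-9 fell from 253 to between 7 and 24 in those 4 fits, and the calls in PC-9 among the pathway genes named further on were lost in each of them. Without nc replicate 1 the number of all genes called was 621, and without nc replicate 2 it was 503. SYK itself lost its call in PC-9 without shSYK replicate 1 (adjusted p = 0.0648).

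In HCC827 cells AKR1C1 had 2 to 8 reads per library and AKR1C2 1 to 4, so that a change was not detectable at this depth. AKR1C3 made up 96.1 ± 1.62% of the summed AKR1C FPKM in HCC827 nc, beside 62.6 ± 1.07% in EBC-1 nc and 48.3 ± 1.46% in PC-9 nc (SD, n = 3). AKR1C3 itself fell in HCC827, from 2.20, 2.55 and 2.15 FPKM to 0.972, 1.29 and 1.03, with a log2 fold change of -0.66 (SE 0.10, adjusted p = 0.00280) and 44 to 136 reads per library. The groups did not overlap, and the call held under every alternative except the filter at 5 FPKM, at which AKR1C3 was too low to be tested. Within the sum, the share of AKR1C1 was 7.05 ± 0.824% in EBC-1 nc and 10.4 ± 1.22% in EBC-1 shSYK, and 7.48 ± 0.375% and 5.70 ± 0.479% in PC-9 (SD, n = 3), with no test made of the shares.

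HMOX1 (ENSG00000100292, chr22:35380361-35394214, plus strand) encodes heme oxygenase 1, which opens heme to biliverdin, iron and carbon monoxide. EBC-1 nc cells read 70.2, 107 and 55.1 FPKM, the highest levels of the gene in the series and with a wide spread. EBC-1 shSYK cells read 6.85, 6.79 and 8.22 FPKM, so that the highest shSYK library stood far below the lowest nc library. The log2 fold change was -3.19 (SE 0.22, 95% interval -3.70 to -2.69, adjusted p = 0.000101), and over 16 alternatives it ranged from -3.41 to -2.94, each with a call. After knockdown the EBC-1 level overlapped those of PC-9 nc and PC-9 shSYK. PC-9 cells read 12.9, 7.83 and 9.69 FPKM in nc and 6.73, 6.25 and 6.80 in shSYK, without overlap and without a call (-0.53, adjusted p = 0.173). A call was gained without nc replicate 2 (-0.68, adjusted p = 0.0341) and after rescaling to an equal FPKM sum (-0.55, adjusted p = 0.0439). Without nc replicate 1, the highest of its group, the PC-9 value shrank to -0.36 (adjusted p = 0.103). HCC827 cells read 3.91, 3.79 and 3.36 FPKM in nc and 3.496, 2.27 and 2.32 in shSYK, in which shSYK replicate 1 overlapped the nc libraries. The HCC827 log2 fold change of -0.36 did not pass (adjusted p = 0.0670), and without shSYK replicate 1 it was -0.51 and did (adjusted p = 0.00840).

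An exact two-sided permutation test with 3 libraries against 3 cannot give a p below 0.1, and it gave 0.1 for every gene and line without overlap.

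Whether the knockdown effect differed between lines was tested directly, as the difference of log2 fold changes in a fit of all 18 libraries. Of 30 tests (10 genes in 3 pairs of lines), 15 passed. Of these, 4 set AKR1C1 or AKR1C2 against HCC827 cells, in which both genes were near 0 reads and were not tested, and these 4 rest on the levels in the other lines. The other 11 cover 7 genes, and in 3 of them both effects were called, each time in opposite directions: AKR1B10 and AKR1C3 between EBC-1 and HCC827 and AKR1C1 between EBC-1 and PC-9. Between EBC-1 and HCC827, 7 genes passed, against 21.8% of all 12672 genes tested. Between EBC-1 and PC-9, 5 passed, against 19.8%, and between PC-9 and HCC827, 3 passed, against 7.5%. Both counts with HCC827 include AKR1C1 and AKR1C2, whose differences measure no effect in that line, and so overstate how many genes differed. Without these genes, NQO1, TXNRD1, AKR1C3, AKR1B10 and HMOX1 passed between EBC-1 and HCC827, and TXNRD1 alone between PC-9 and HCC827. The fall of HMOX1 was larger in EBC-1 than in PC-9 (difference -2.67, adjusted p = 9.91e-06) and in HCC827 (-2.84, adjusted p = 3.78e-06). The AKR1B10 effect was higher in EBC-1 than in PC-9 (1.77, adjusted p = 1.61e-06) and HCC827 (2.24, adjusted p = 1.04e-07), and the AKR1C1 effect higher in EBC-1 than in PC-9 (1.42, adjusted p = 9.14e-06). For TXNRD1, HCC827 stood apart from both EBC-1 and PC-9, with differences of 0.57 and 0.63 (adjusted p = 0.00119 and 0.00136), of which that with PC-9 was lost with quantile normalization (0.47, adjusted p = 0.0702). The NQO1 difference between EBC-1 and HCC827, 0.43 (adjusted p = 0.0218), was lost without HCC827 nc replicate 1 (0.0503) or shSYK replicate 1 (0.0606). GCLC, GCLM and SRXN1 passed in no pair. The differences of AKR1C2 with HCC827 were each lost under 10 of 25 alternatives, among them a pseudocount of 0.1 (adjusted p = 0.0583 for EBC-1 and 0.487 for PC-9).

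Of 11 regulators of the pathway, 2 rose and 4 fell in EBC-1, where 44.7% of all genes were called, and 2 rose and 3 fell in HCC827, where 38% were, so both counts were near the background. In PC-9 limma called 0 of them, as did limma-voom, and 1 had an unadjusted p under 0.05. Of all genes in PC-9, limma called 2.09%, and 15.6% had an unadjusted p under 0.05, so these counts were near the background too. Among the 8 described here, SQSTM1, the autophagy receptor that sequesters KEAP1, had the largest fold change. It read 307, 311 and 307 FPKM in EBC-1 nc and 152, 156 and 166 in EBC-1 shSYK, a fall to 51.2% of nc (log2 fold change -0.96, SE 0.06, adjusted p = 7.51e-05). In the other lines its groups overlapped, at 54.8 ± 13.7 and 52.4 ± 3.87 FPKM in PC-9 and 33.9 ± 1.92 and 37.1 ± 2.62 in HCC827 nc and shSYK (SD, n = 3). In PC-9 the log2 fold change of -0.04 became 0.14 without nc replicate 1 (adjusted p = 0.515). The SQSTM1 level of EBC-1 nc cells was thus the highest of the 6 groups. SQSTM1 is itself known as an NRF2 target.

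NFE2L2 rose in EBC-1 cells, from 4.38, 6.25 and 4.72 FPKM in nc to 6.61, 6.81 and 7.27 in shSYK (log2 fold change 0.38, adjusted p = 0.0319). In the same libraries SQSTM1 fell, and of the 10 targets 4 rose, 1 (HMOX1) fell and 5 had no call. The NFE2L2 call was lost without nc replicate 1 or 3 or any 1 shSYK replicate (adjusted p between 0.0624 and 0.105), and without a filter on low levels (0.0965). NFE2L2 did not pass the test in PC-9 (0.21, adjusted p = 0.662; 0.0012 without nc replicate 1) or HCC827 (-0.03, adjusted p = 0.767). KEAP1 fell in HCC827 cells, from 41.5, 40.3 and 42.8 FPKM to 35.9, 36.7 and 32.02 (-0.25, adjusted p = 0.0205), a call lost without nc replicate 1 or 3 or shSYK replicate 3 (adjusted p between 0.0565 and 0.0608) and in a fit of all 18 libraries (0.157), and did not pass in EBC-1 (-0.11) or PC-9 (-0.15, and 0.04 without nc replicate 1). CUL3 rose in EBC-1 cells from 2.78 ± 0.222 to 3.57 ± 0.285 FPKM (0.27, adjusted p = 0.0359), and this call was lost under 9 of 15 alternatives (adjusted p of up to 0.204).

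Of the factors that pair with NRF2 or compete with it, MAFF fell in EBC-1 and HCC827. It read 15.1, 13.2 and 14.4 FPKM in EBC-1 nc and 8.91, 8.85 and 9.24 in shSYK (-0.61, adjusted p = 0.000791), and 10.1, 8.78 and 11.4 in HCC827 nc and 5.70, 4.89 and 5.89 in shSYK (-0.77, adjusted p = 0.00150), without overlap in either line. MAFG fell in EBC-1 from 44.3 ± 2.80 to 34.01 ± 2.14 FPKM (-0.37, adjusted p = 0.00729), and MAFK was called in no line. BACH1, the repressor, rose in HCC827 from 2.44 ± 0.176 to 3.08 ± 0.166 FPKM (0.24, adjusted p = 0.0395), a call lost when any 1 of the 6 libraries was left out (adjusted p between 0.0512 and 0.112), in a fit of all 18 libraries (0.329), without a filter on low levels (0.0975) and with quantile normalization (0.0701). In EBC-1, where HMOX1 fell, BACH1 read 2.02, 2.89 and 1.99 FPKM in nc and 2.85, 2.87 and 2.99 in shSYK, and its groups overlapped (adjusted p = 0.116).

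**Figure D3:**
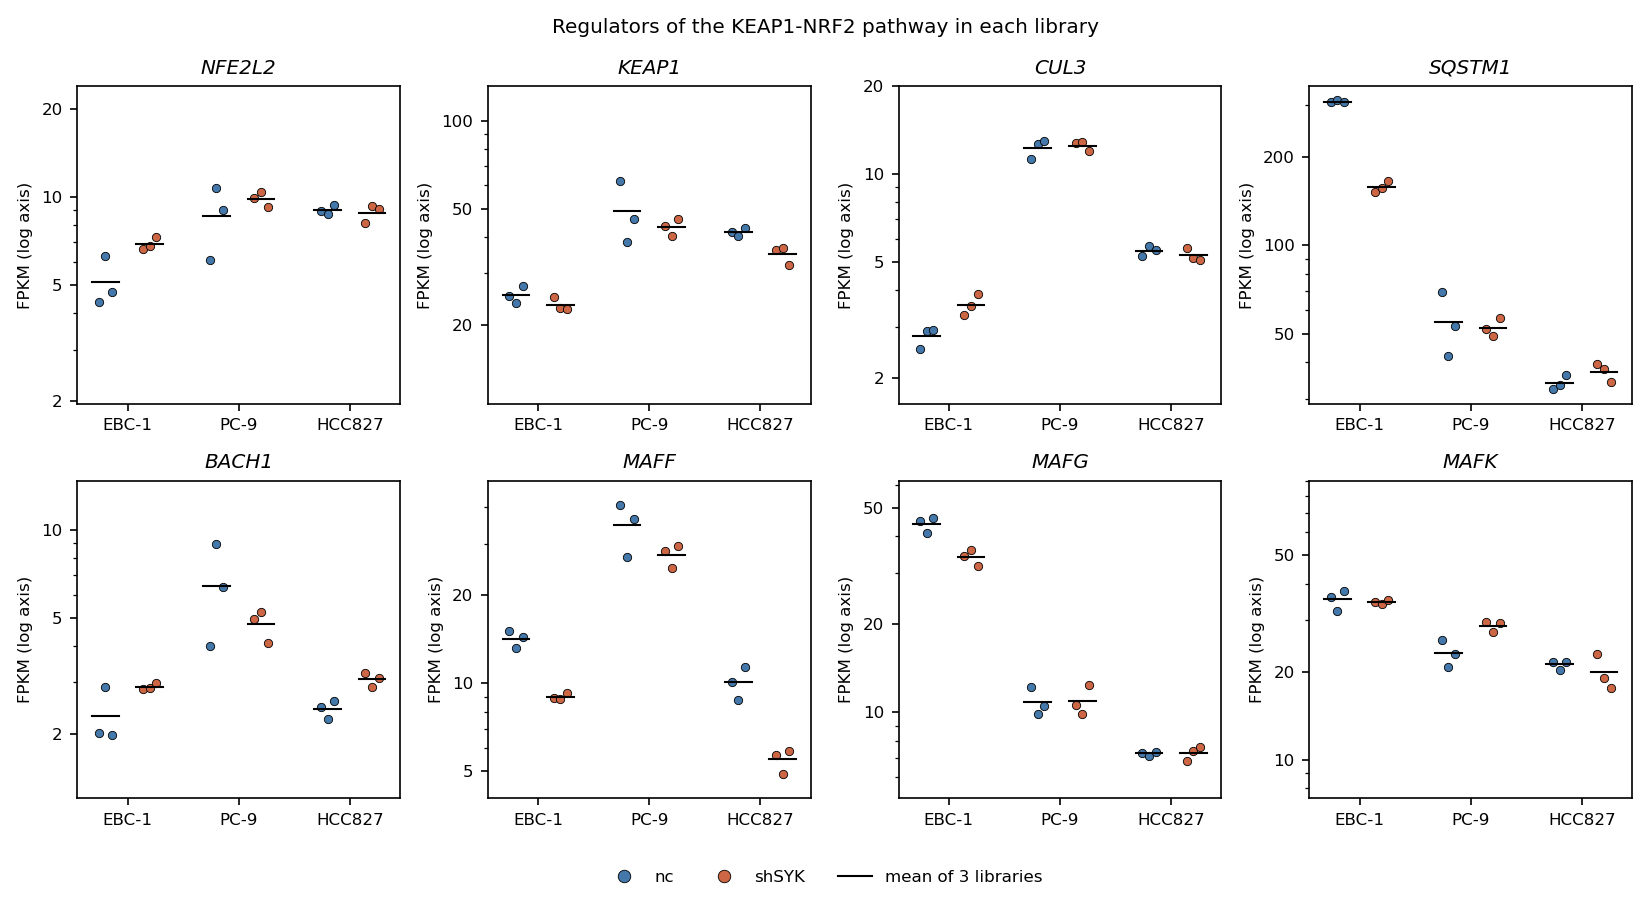
FPKM of 8 regulators of the KEAP1-NRF2 pathway in each of the 18 libraries (log axis, own range per panel), with nc in blue, shSYK in orange and a bar at the mean of 3 libraries. SQSTM1 drops from near 308 to near 158 FPKM in EBC-1, and MAFF is lower in shSYK in EBC-1 and HCC827.

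Over 60 other genes of the pathway, 10 rose and 17 fell in EBC-1 (49 tested), 10 rose and 18 fell in HCC827 (55 tested), and 1 rose and 3 fell in PC-9 (56 tested). The shares of all genes called given above are the background of these counts, and the median log2 fold change of the genes tested was -0.06, -0.06 and 0.03. Leaving out 1 library moved the genes that rose to between 6 and 12 in EBC-1, with 6 without nc replicate 1 or 3 or shSYK replicate 1 or 2, and those that fell to 11 without nc replicate 1. In PC-9, 8 rose without nc replicate 1. ABCC3, which exports glutathione and glucuronide conjugates, fell in all 3 lines, and AKR1B1, an aldose reductase named after its values were seen, was called in opposite directions, lower in EBC-1 and higher in HCC827. Of the 60 genes, 15 were called in no line, and the share of all genes for which this holds was not worked out.

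**Figure D4:**
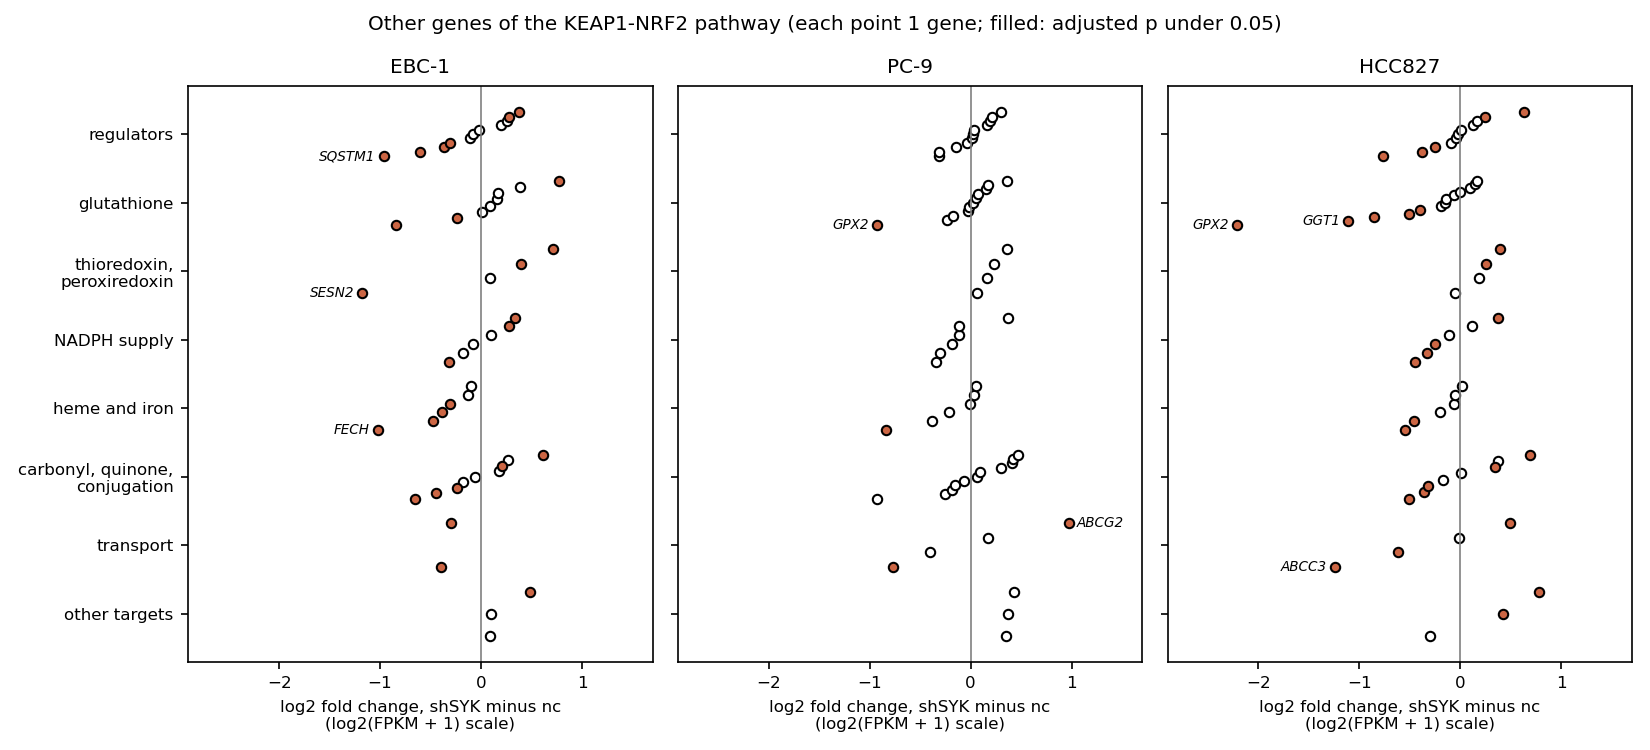
Log2 fold change, shSYK minus nc on the log2(FPKM + 1) scale (x axis), of other genes of the KEAP1-NRF2 pathway by role (y axis), 1 point per gene tested and filled points for an adjusted p under 0.05. GPX2 (-2.21) and ABCC3 (-1.24) lie farthest left in HCC827, and 4 points are filled in PC-9, against 27 in EBC-1 and 28 in HCC827.

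Of 13 glutathione genes in HCC827, 5 fell and 8 had no call, where 20.7% of all genes fell and 17.2% rose. In EBC-1 1 of 8 tested rose and 2 fell, beside 23.1% and 21.6% of all genes. In PC-9 1 of 11 tested fell, beside 1.41% of all genes. GPX2, a glutathione peroxidase of epithelia, read 8.31, 11.8 and 9.91 FPKM in HCC827 nc and 0.668, 1.69 and 1.89 in shSYK, a fall to 14.2% of nc (log2 fold change -2.21, adjusted p = 0.000469). It also fell in PC-9, from 7.18, 4.25 and 5.63 to 2.76, 2.06 and 2.56 FPKM (-0.93, adjusted p = 0.0450), and in EBC-1 its mean stayed under 1 FPKM and it was not tested. GGT1, which breaks down extracellular glutathione, fell in HCC827 from 8.21, 9.43 and 9.61 to 3.95, 3.63 and 3.43 FPKM (-1.11, adjusted p = 0.000184), and had a mean under 1 FPKM in the other lines. For both genes no shSYK library reached the lowest nc library where a call was made.

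Of 4 thioredoxin and peroxiredoxin genes, 2 rose and 1 fell in EBC-1 and 2 rose in HCC827. Over all genes, 23.1% rose and 21.6% fell in EBC-1, and 17.2% rose and 20.7% fell in HCC827. TXN, thioredoxin itself and the substrate of TXNRD1, rose from 126, 138 and 126 to 205, 205 and 232 FPKM in EBC-1 (0.71, adjusted p = 0.000564). In HCC827 it rose from 226 ± 13.8 to 270.3 ± 16.9 FPKM (SD, n = 3; 0.26, adjusted p = 0.0259), while TXNRD1 fell in the same libraries, and this call was lost without nc replicate 2 or 3 or shSYK replicate 2 or 3 (adjusted p between 0.0507 and 0.0858). SESN2, a stress-induced sestrin, fell in EBC-1 from 51.9, 48.4 and 46.01 to 21.4, 23.5 and 18.3 FPKM (-1.18, adjusted p = 0.000250).

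Of 6 genes that supply NADPH, 2 rose and 1 fell in EBC-1, and 1 rose and 3 fell in HCC827. The shares of all genes called in these lines were 44.7% and 38%. ME1, cytosolic malic enzyme, rose in EBC-1 (0.34, adjusted p = 0.0237) and HCC827 (0.37, adjusted p = 0.0234), from 4.61 to 6.07 and from 6.30 to 8.42 FPKM. The EBC-1 call was lost without nc replicate 1 or 3 or shSYK replicate 1 or 2 (adjusted p between 0.0666 and 0.0779), and the HCC827 call without nc replicate 1 or 3 or shSYK replicate 1 or 3 (between 0.0540 and 0.0707).

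Of 6 heme and iron genes, 4 fell in EBC-1 cells, 2 fell in HCC827 cells and 1 in PC-9 cells, where 21.6%, 20.7% and 1.41% of all genes fell; the counts in HCC827 and PC-9 were within about 1 gene of the background. FECH, the ferrochelatase that completes heme, fell in EBC-1 from 8.64, 9.79 and 6.90 to 3.72, 3.67 and 3.45 FPKM (-1.02, adjusted p = 0.000704) and in HCC827 from 9.99, 10.1 and 10.96 to 7.05, 6.90 and 6.35 (-0.55, adjusted p = 0.00100). SLC48A1, a heme transporter, fell in PC-9 from 14.2, 9.30 and 11.7 to 5.93, 5.47 and 6.77 FPKM (-0.84, adjusted p = 0.0451) and in EBC-1 from 8.77 ± 0.879 to 6.46 ± 0.680 (SD, n = 3; -0.39, adjusted p = 0.0155), where the call was lost without nc replicate 1 or 3 or shSYK replicate 1 (adjusted p between 0.0541 and 0.0571). In EBC-1 cells HMOX1, FECH and SLC48A1 all fell, while FTL and BLVRA, also among the 6 genes, had no call. Whether these falls are linked was not tested.

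Among 13 genes of carbonyl and quinone reduction and conjugation, 2 rose and 3 fell in each of EBC-1 (9 tested) and HCC827 (8 tested). Calls over all genes came to 44.7% in EBC-1 and 38% in HCC827. PTGR1, a reductase of prostaglandins and leukotrienes, rose in EBC-1 from 5.05, 4.21 and 4.35 to 7.01, 7.01 and 8.51 FPKM (0.62, adjusted p = 0.00257) and in HCC827 from 4.16, 3.98 and 4.56 to 7.07, 7.96 and 7.36 (0.69, adjusted p = 0.000573). In PC-9 PTGR1 read 53.1, 52.3 and 59.1 FPKM in nc and 76.2, 78.6 and 74.04 in shSYK, without overlap and without a call (0.47, adjusted p = 0.0723), which was gained without nc replicate 1 (0.45, adjusted p = 0.0407). PIR, the iron-binding protein pirin, fell in EBC-1 from 5.11, 5.64 and 5.10 to 2.32, 3.40 and 3.37 FPKM (-0.65, adjusted p = 0.00465).

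Of the 4 transporters, ABCC3 read 38.5, 37.7 and 36.8 FPKM in EBC-1 nc and 29.6, 27.5 and 27.8 in shSYK (-0.40, adjusted p = 0.00231). In PC-9 it read 39.6, 34.02 and 35.4 and 21.3, 19.8 and 21.4 (-0.77, adjusted p = 0.0171), and in HCC827 35.3, 35.9 and 34.8 and 13.3, 13.8 and 16.2 (-1.24, adjusted p = 0.000109). The nc levels were close in the 3 lines and the groups overlapped in none. ABCG2, a drug efflux pump, rose in PC-9 from 1.52, 0.976 and 1.35 to 3.32, 3.54 and 3.52 FPKM (0.97, adjusted p = 0.0132) and in HCC827 from 0.770, 0.860 and 0.689 to 1.57, 1.45 and 1.45 (0.49, adjusted p = 0.00727). Of the 3 other reported targets, TRIM16, an E3 ligase, rose in HCC827 from 4.05, 3.65 and 3.999 to 7.26, 8.34 and 6.62 FPKM (0.77, adjusted p = 0.000772), and OSGIN1, an oxidative stress-induced growth inhibitor, rose in EBC-1 from 22.8, 24.9 and 22.8 to 36.5, 31.7 and 31.9 (0.49, adjusted p = 0.00273).

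The genes whose pattern over the 6 group means was most like that of NQO1 were ST3GAL1, CSTF2T, KIAA1522, ABTB2 and RP9, with a root mean square difference of 0.09 to 0.11 on the log2 scale after centring, among 7084 genes. For AKR1C1 they were FOXC1, ZNF503, AL512488.1, FAM107B and PCDH1, with 0.29 to 0.36. The 10 NRF2 targets were left out of the genes compared, so their likeness to each other was not examined. The likeness rests on 6 points that share their libraries and is a description.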

How the data were processed

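RNA was extracted with Trizol and sequenced on an Illumina instrument, per the labels. The authors deposited FPKM per gene, 1 table per cell line. The submitters' processing notes name CASAVA and HISAT2 and list GRCh37, GRCh38, hg19 and hg38; the study's methods give hg38, and gene positions overlapped GENCODE v44 on GRCh38 for 99.96% of 57532 genes. The counter, its treatment of shared reads and strand, and the FPKM denominator are not given in the sources used here. FPKM times gene length gave whole reads (within 0.05 of a read) for 100% of values, so depth, between 7920099 and 15729103 reads on genes per library, could be recovered.

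Tests were run in R 4.3.3 with limma 3.58.1 (empirical Bayes with a variance trend, two-sided) on log2(FPKM + 1), within a cell line, for genes with a mean of at least 1 FPKM, with Benjamini-Hochberg adjustment and a threshold of 0.05. Differences between lines were contrasts in a fit of all 18 libraries. Scripts were tested on simulated data. Groups came from the labels. The 10 genes, the pathway list and the tests were chosen with earlier results of these data known. Named were all 10 genes, 8 regulators, and in every other role the 2 pathway genes with the largest fold change among those called in any line, plus the 5 genes nearest to NQO1 and to AKR1C1. 1 of the named results is not reported here. Replicates of a group were not copies (chi-square per degree of freedom of 2.11 to 38.7). Same-numbered libraries deviated together with correlations of -0.22 to 0.33, so the numbers were not taken to pair samples. Other settings tried were limma-voom on the recovered reads, a 0.1 pseudocount, quantile normalization, an equal FPKM sum per library (TPM), limma with the variance trend off, all 18 libraries fitted together, the replicate number as a block, the low-level filter dropped or raised to 5 FPKM, each library left out, the AKR1C genes summed and, chosen after seeing the data, removal of the trend on gene length (lowess, span 0.3).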

Additional observations from a re-analysis of the deposited data

Results flagged for a closer look

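A direct test of the difference in SYK knockdown effect between 2 cell lines passed in 15 cases (limma, all 18 libraries, adjusted p under 0.05). In 11 of them the NRF2 target was tested within both lines, and the other 4 set AKR1C1 or AKR1C2 against HCC827. Values are differences of log2 fold changes, the first line minus the second. AKR1B10 differed by 2.24 between EBC-1 and HCC827 and by 1.77 between EBC-1 and PC-9. AKR1C1 differed by 0.68 between EBC-1 and HCC827, by 1.42 between EBC-1 and PC-9 and by -0.74 between PC-9 and HCC827. AKR1C2 differed by 0.40, 0.87 and -0.47 in the same pairs. In HCC827 cells AKR1C1 had 2 to 8 reads per library and AKR1C2 1 to 4, neither was tested within that line, and their differences with it measure no effect in HCC827. Those of AKR1C2 were lost under 10 of 25 alternatives each. AKR1C3 differed by 0.94 between EBC-1 and HCC827 and 0.63 between EBC-1 and PC-9. HMOX1 differed by -2.84 between EBC-1 and HCC827 and by -2.67 between EBC-1 and PC-9. NQO1 differed by 0.43 between EBC-1 and HCC827. TXNRD1 differed by 0.57 between EBC-1 and HCC827 and by 0.63 between PC-9 and HCC827.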

How the results depend on the processing

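With 3 libraries per group, PC-9 counts were unstable. The 1 target that fell in PC-9 became 0 without a filter, 4 with TPM or quantile normalization, 3 in the fit of all 18 libraries and 2 with voom, and 0 to 3 with 1 library left out. PC-9 pathway genes that rose numbered 0 without a filter or with a mean of 5 FPKM, 4 with quantile normalization, 9 in the 18-library fit and 2 with the length trend removed (0 to 8 with a library left out). Those that fell numbered 1, 6, 5, 7 and 5 without a filter, with TPM, quantile normalization, the 18-library fit and voom (0 to 4 with a library left out). All genes called in PC-9 came to 47, 491, 505, 1354 and 485 in the same order, and 7 to 621 with a library left out. In EBC-1, 7 targets rose with TPM (2 to 6 with a library left out), and 3579 genes were called with a mean of 5 FPKM. Pathway genes called there ranged from 6 to 12 higher and 11 to 18 lower with a library left out, and all genes from 3761 to 6309. In HCC827, targets that rose numbered 0 in the 18-library fit and 0 to 1 with a library left out, those that fell 3 to 5, and pathway genes that rose 6 without a filter and 7 to 8 with a library left out. Genes whose effect differed between lines, with AKR1C1 and AKR1C2 counted, ranged from 5 to 6 (EBC-1 and PC-9), 5 to 7 (EBC-1 and HCC827) and 2 to 4 (PC-9 and HCC827). The share of calls that were higher went from 51.7% to 67.9% with TPM and 63.1% with voom in EBC-1, and from 45.4% to 56.6% and 58.4% in HCC827. The cause was not tested.

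Fold changes near 0, none of them called where the sign changed, turned direction. TXNRD1 in EBC-1 read 0.119 with TPM, 0.122 with quantile normalization, 0.0788 with voom, and 0.0153, 0.018 and 0.0656 without shSYK replicate 2, shSYK replicate 1 and nc replicate 2 (-0.0722 to 0.0656 with a library left out). GCLC in EBC-1 read -0.00886 without nc replicate 3 (up to 0.255 with another library left out, which was called), TXNRD1 in PC-9 -0.0445 with quantile normalization and SRXN1 in PC-9 -0.0542 without nc replicate 2 (up to 0.371). In HCC827, GCLC read 0.0124 with TPM, 0.0399 with voom and 0.0296 without nc replicate 1 (down to -0.0822 without nc replicate 2), and SRXN1 read 0.0498 with TPM, 0.0272 with quantile normalization, 0.0283 with voom, 0.0693 with the length trend removed and 0.0167 to 0.109 without nc replicate 2 or 3 or shSYK replicate 3 (down to -0.14 without nc replicate 1).

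With the replicate number as a replicate block, whose pairing the libraries did not bear out, AKR1C3 in EBC-1 lost its call (adjusted p = 0.0656), as did CUL3 in EBC-1 (0.0611) and BACH1 (0.0566), ME1 (0.0527) and TXN (0.0588) in HCC827, and HMOX1 in HCC827 gained one (0.0440). The differences between EBC-1 and HCC827 for NQO1 (0.0513) and AKR1C2 (0.0599) and between PC-9 and HCC827 for AKR1C2 (0.0745) were lost too. In EBC-1 AKR1B10, AKR1C1 and HMOX1, and in HCC827 NQO1, TXNRD1 and AKR1C3, kept their calls under every alternative in which they were tested. With the filter at 5 FPKM, AKR1C1 in EBC-1 and AKR1C3 in HCC827 were too low to be tested. Without the filter on low levels, calls were lost for AKR1C2 (adjusted p = 0.0531), NFE2L2 (0.0965), CUL3 (0.0868) and ME1 (0.0678) in EBC-1, for BACH1 (0.0975), ME1 (0.0757) and TXN (0.0789) in HCC827, and for AKR1C1 (0.106), GPX2 (0.142), SLC48A1 (0.135) and ABCG2 (0.0639) in PC-9. AKR1C1 and AKR1C2 in HCC827 are limited by depth.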
